A study of Mus musculus with 2 samples.

Results

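The regional homeobox and Pax factors are transcription factors that give positions in the embryo their identity, and they were followed here in endothelial-type cells from mouse embryoid bodies with and without induction of Mesp1. All probe sets whose platform gene symbol began with Irx, Msx, Dlx, Pitx, Nkx, Lhx, Prrx, Meox, Barx, Gbx, Otx, Emx, Pax, Alx or Vax, or with the sine oculis stem of Six4, and then a digit were taken, with Nkx2-5 and Lhx1 left out. This gave 118 of 45037 probe sets, and these stood for 74 of the 18193 genes with a named probe set. Of the 74, 64 code for proteins and 10 are antisense or opposite-strand transcripts named after a neighbouring homeobox gene, such as Emx2os. All 16 name families of the rule were represented.

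The arrays hold 2 samples, both from A2lox.Mesp1 embryonic stem cells, a 129/Ola line that carries a Mesp1 gene under doxycycline (dox) control. The control culture carried the same inducible gene and received no dox, and the other culture received dox at 250 ng/mL from day 2 to day 4. On day 5 of growth as embryoid bodies, cells positive for Flk1 and Tie2, surface receptors of endothelium encoded by Kdr and Tek, were sorted, and their RNA was put on Affymetrix 3' arrays. There is 1 array per condition, so no difference below has a replicate check or a p-value, and each compares these 2 samples alone. Cells without the inducible gene were not analysed here, so dox itself and Mesp1 cannot be told apart.

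Homeobox proteins bind DNA through a homeodomain, a compact helical fold, and Pax proteins bind it through a paired domain, which several of them combine with a homeodomain. Each family marks its own regions of the embryo: Otx, Emx, Gbx and Vax genes the head and brain, Irx genes segments of the heart and neural tube, Msx, Dlx, Alx and Prrx genes the mesenchyme of face, limb and vessel walls, and Meox and several Pax genes the somites. Many are silent outside their own territory, and in mesoderm some respond to signals such as BMP.

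Upstream sequences are given for 4 genes described below, so that the letters before their starts can be read beside their values. The 4 are a choice from the members, so their matches are not read as a pattern. Irx3 and Msx1 fell short of the 2-fold call used below, and the called Prrx2, Alx1, Irx5 and Lhx6 are not shown. Lhx2, Irx3 and Msx1 had higher signals with dox and Nkx1-2 a lower one. The sequences are from RefSeq on GRCm38.p6, run 5′ to 3′ on the gene's strand and end at the base before the gene. They lie at chr2:38339031-38339270 on the plus strand, and at chr8:91801655-91801904, chr5:37824586-37824835 and chr7:132599638-132599887 on the minus strand. Capitals mark matches to CANNTG, the E-box letters that basic helix-loop-helix factors, the class Mesp1 belongs to, can bind.
Lhx2: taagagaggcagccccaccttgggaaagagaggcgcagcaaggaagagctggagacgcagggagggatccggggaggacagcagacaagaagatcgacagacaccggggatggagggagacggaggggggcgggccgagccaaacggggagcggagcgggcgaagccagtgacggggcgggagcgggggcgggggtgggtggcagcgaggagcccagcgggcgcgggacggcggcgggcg
Irx3: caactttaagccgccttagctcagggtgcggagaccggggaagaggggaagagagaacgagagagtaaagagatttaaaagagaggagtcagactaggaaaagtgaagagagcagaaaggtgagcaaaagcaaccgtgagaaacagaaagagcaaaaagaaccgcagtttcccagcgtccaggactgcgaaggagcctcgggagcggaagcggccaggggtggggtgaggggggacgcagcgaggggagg
Msx1: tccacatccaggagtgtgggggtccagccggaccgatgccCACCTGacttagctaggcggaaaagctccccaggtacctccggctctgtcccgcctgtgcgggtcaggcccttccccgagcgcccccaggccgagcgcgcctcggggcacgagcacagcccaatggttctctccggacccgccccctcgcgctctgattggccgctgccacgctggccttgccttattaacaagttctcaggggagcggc
Nkx1-2: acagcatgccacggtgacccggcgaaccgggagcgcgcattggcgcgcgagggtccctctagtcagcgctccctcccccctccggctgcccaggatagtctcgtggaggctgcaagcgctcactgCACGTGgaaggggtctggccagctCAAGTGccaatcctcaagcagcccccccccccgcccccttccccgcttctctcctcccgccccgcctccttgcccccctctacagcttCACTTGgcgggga

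The letters CANNTG, which read the same on both strands, were found 3 times before Nkx1-2 and once before Msx1, as the capitals show. They were not found in the 240 bases before Lhx2 or the 250 bases before Irx3, and no match overlapped another. Over the first 250 upstream bases of all 32851 RefSeq starts, 66.2% held at least 1 such match, and over the first 240 bases 65.0% did. Starts were listed for 51 of the 74 genes, and 31 of their 62 windows held 1. The homeodomain core letters TAATTA and the TATA box letters TATAAA, searched on both strands, were in none of the 4 sequences, against 4.84% and 12.4% of all windows. Among the 62 windows of the members 7 held TAATTA and 5 held TATAAA. These matches describe the letters in the window and nothing about binding.

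Most of these genes were dim on both arrays and differed little. Where a gene had several probe sets, the one with the highest mean signal over the 2 arrays stands for it (the brightest probe set). A gene is said to pass the signal filter when that probe set reaches the array's median over all probe sets (112 without dox, 127 with dox) on at least 1 array. Of the 74 genes 27 passed, or 36.5%, against 64.8% of all 18193 genes. Differences are dox minus no dox of log2(signal + 16), a scale that understates the change of dim genes, and folds are taken from the same scale. Over all 74 genes, with no filter, the median log2 difference was 0.015, beside 0.041 for all genes measured, and 38 genes were higher and 36 lower by any amount, beside 54.9% higher among all genes. The balance of such small differences depended on the scaling, with 32 higher and 42 lower after quantile normalization and 24 and 50 with the arrays set to equal medians. In sorted bulk cells fewer cells of a type and less RNA per cell cannot be told apart.

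A gene was called when it passed the filter and differed 2-fold or more. By that rule 4 of the 74 were higher with dox, beside 3.69% of all measured genes, and 2 were lower, beside 1.34%. Of the genes past the filter the background was 5.69% higher and 2.06% lower. Alx1, Irx5 and Lhx2 passed only through the dox array, and any gene that passes in that way with a much dimmer control has to differ, so the count of 4 is a description. With counts this small the shares are not read as a property of the group. The array gives no error between cultures, and the only internal one is the spread between probe sets of the same gene, which had a pooled SD of 0.38 (log2) across the 13823 probe sets past the filter that share a gene with another. Those dimmer than 500 on average had an SD of 0.48. A signal depends on its probes, so signals are compared between the arrays and not between genes.

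**Figure D1:**
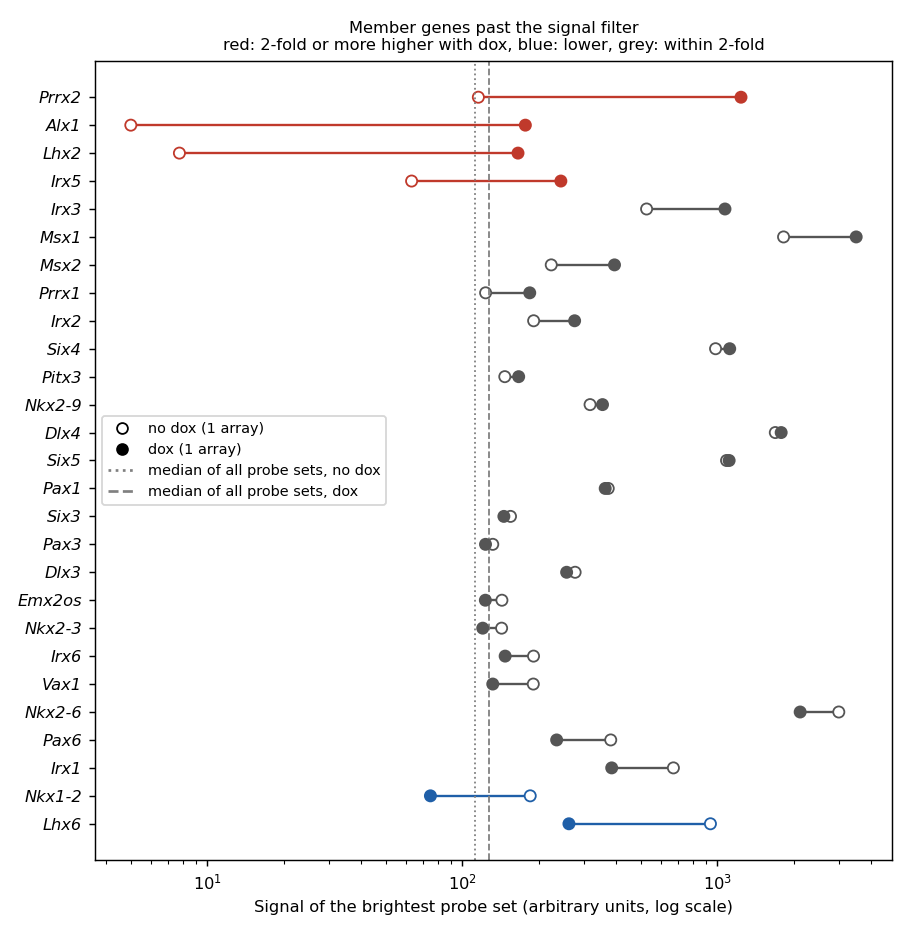
Signal of the brightest probe set, in arbitrary units on a log axis, for the 27 member genes past the signal filter, with an open point for the array without dox and a filled point for the array with dox. Red lines (Prrx2, Alx1, Lhx2, Irx5) mark genes called as higher with dox and blue lines (Lhx6, Nkx1-2) those called as lower; the open points of Alx1, Lhx2 and Irx5 lie left of the median of their array, 112.

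The largest positive difference belonged to Prrx2, a paired-related homeobox factor of limb, face and vessel-wall mesenchyme. Its only probe set read 115.5 in the control and 1237 after dox, which is 9.53-fold higher (log2 difference 3.25). The control value lay just above that array's median, and the difference ranked 71st from the top among the 11794 genes past the filter. Prrx1, its paralogue with partly shared roles in limb and skull mesenchyme, had 123 and 184 by its brightest probe set, a log2 difference of 0.52. The remaining 5 probe sets of Prrx1 disagreed, and the most distant of them were below the filter, one lower (25.0 and 1) and one higher (28.6 and 110.5). Its second probe set past the filter gave -0.13, so Prrx1 had no settled direction.

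Alx1, a paired-type factor of frontonasal and skull mesenchyme, had signals of 5.01 and 176.6. This is a log2 difference of 3.20, or 9.17-fold, and rank 76 from the top. The remaining probe set of Alx1 stayed dim (14.03 and 27.6, log2 difference 0.54), so the size of the difference rests on 1 probe set. Alx4, a related factor of face and limb mesenchyme, was below the filter with 50.0 and 64.2.

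Lhx2, a LIM homeobox factor needed for forebrain, eye and definitive red cell formation, had signals of 7.77 and 165. Its single probe set gave a log2 difference of 2.93, or 7.62-fold, and rank 97 from the top. As for Alx1, the control signal was far under the median, so the fold depends on the pseudocount. On a pseudocount of 1 the log2 difference was 4.24 for Lhx2 and 4.89 for Alx1, and on a pseudocount of 64 it was 1.68 and 1.80.

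Iroquois genes, which pattern the heart chambers and the neural tube, had 5 of 6 members past the filter and values in both directions. Irx5, which helps set the repolarization gradient across the ventricle wall, read 63.2 in the control and 243 after dox, 3.27-fold higher (log2 difference 1.71). Irx3, which acts in the ventricular conduction system, had 528 and 1071, a log2 difference of 0.9993 just short of 2-fold. Irx2 had 190.3 and 275.5 (0.50) and Irx6 had 190.1 and 147 (-0.34). Irx1 was lower with dox, 672 and 385, a log2 difference of -0.78. Irx4, a marker of ventricular muscle, was at 8.47 and 4.90, below the filter on both arrays. Each Irx gene had 1 probe set, so none of these values has a second reading.

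In the RefSeq gene order Irx3, Irx5 and Irx6 follow each other, as do Irx1, Irx2 and Irx4. In the first group Irx3 and Irx5 were both higher and Irx6 was not, and in the second group the values went in both directions. Over all 12 pairs of members that are next to each other among protein-coding genes (predicted Gm genes left out), the neighbours had the same sign in 6 and opposite signs in 6. The same-sign count was 5 after quantile normalization and 8 with equal medians, and in only 4 of the 12 pairs did both genes pass the filter.

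Msx genes, which respond to BMP signals in neural crest, limb and endocardial cushion mesenchyme, were below the 2-fold line. Msx1 had 1817 and 3501, a log2 difference of 0.94 or 1.92-fold, and its second probe set had 262 and 331, a difference of 0.32. Msx2 had 223 and 395 (0.78), and its second probe set had 131.1 and 195 (0.52). All 4 probe sets passed the filter and had a higher signal with dox. Msx3, which in the mouse is restricted to the dorsal neural tube, was below the filter with 32.9 and 36.8. Its small difference of 0.11 turned to -0.049 with equal medians.

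The lowest difference was that of Lhx6, a LIM homeobox factor of interneurons and of jaw and tooth mesenchyme. Its brightest probe set had 939 without dox and 262 with dox, a log2 difference of -1.78 or 3.44-fold lower, rank 37 from the bottom of the genes past the filter. The remaining probe set was dim, 50.4 and 32.4, and gave -0.46. Both probe sets of Lhx6 carry the ending of those that can detect several transcripts of a gene. The other LIM homeobox genes Lhx3, Lhx4, Lhx5, Lhx8 and Lhx9, factors of motor neurons, pituitary, brain and gonad, did not pass the filter, with log2 differences from -0.54 to 0.11.

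Nkx1-2, a factor of the caudal epiblast and the neural plate beside the streak, had 184.5 without dox and 74.9 with dox. Its log2 difference was -1.14, or 2.20-fold lower, and the signal with dox lay under the median of its array. The other probe sets of Nkx1-2 were below the filter and went in both directions, 31.5 to 47.6 and 3.39 to 1.46. The mean over its 3 probe sets was -0.29, so the call rests on the brightest one.

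**Figure D2:**
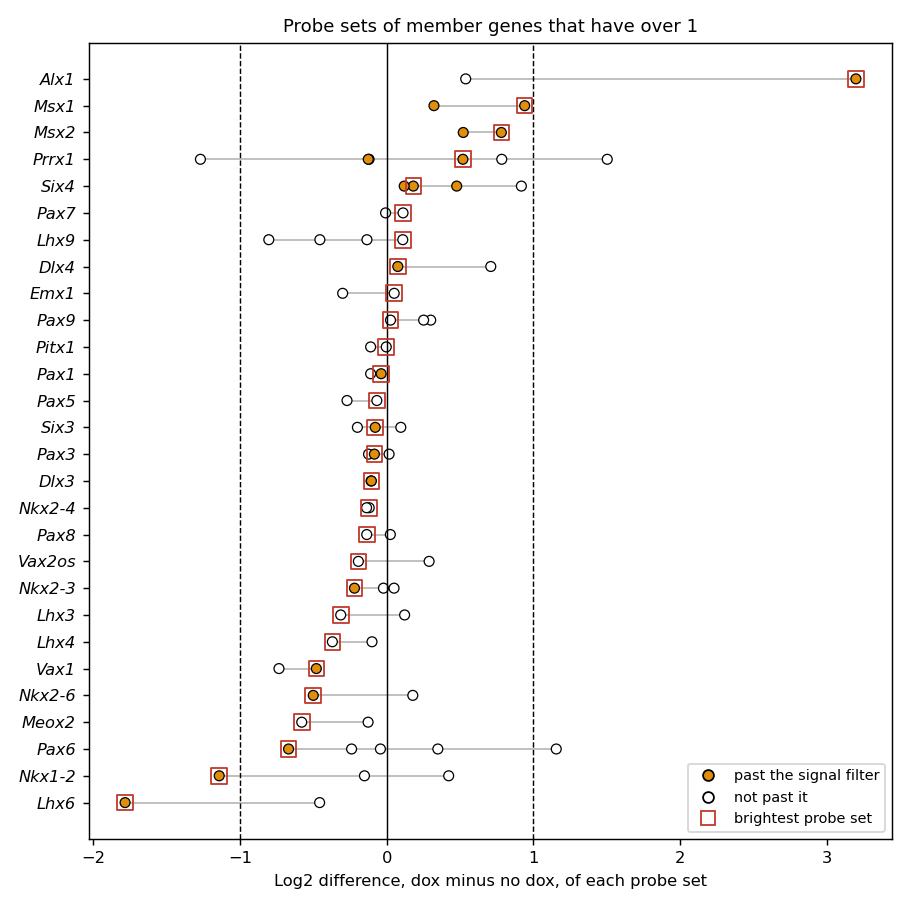
Log2 difference, dox minus no dox, of each of the 72 probe sets of the 28 member genes with over 1 probe set; filled points passed the signal filter, squares mark the brightest probe set and dashed lines mark 2-fold. The probe sets of Msx1 and Msx2 all lie right of 0, whereas those of Prrx1 run from -1.27 to beyond the upper 2-fold line and those of Pax6 from -0.67 to 1.16.

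The remaining Nkx genes past the filter were within 2-fold. Nkx2-6, a close relative of the cardiac Nkx factors that marks pharyngeal pouches and early heart, had 2992 and 2111, a log2 difference of -0.50. Its other probe set, at 30.6 and 36.8, was under the filter. Nkx2-3, a factor of gut and spleen vessels, had 142.5 and 120.2 (-0.22), and Nkx2-9, a Hedgehog-responsive factor of the ventral neural tube, had 317 and 354 (0.15). The direction of Nkx2-9 turned with equal medians (-0.0066). Nkx2-1, Nkx2-2, Nkx2-4, Nkx3-2, Nkx6-1, Nkx6-2 and Nkx6-3, factors of lung, thyroid, pancreas, somite and ventral nervous system, were all below the filter, with no signal above 64.6.

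No Pax gene was called. Pax6, the eye and brain factor, had 382 and 234 by its brightest probe set, a log2 difference of -0.67. The mean over its 5 probe sets was 0.11, so its direction was not settled. A further probe set of Pax6 went from 1.08 to 22.0 (1.16) and none of its other 4 probe sets passed the filter. By their brightest probe sets Pax1, of sclerotome and pharyngeal pouches, had 373 and 363 (-0.038), and Pax3, of dermomyotome and neural crest, had 131.6 and 123.2 (-0.084). The other probe set of Pax1 was dim, at 29.6 and 26.2. Pax4, Pax5, Pax7, Pax8 and Pax9, among them the B cell factor Pax5, did not pass. Their log2 differences ran from -0.14 to 0.11.

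Sine oculis homeobox genes such as Six4, which work with Eya phosphatases and Dach corepressors in placodes, muscle and kidney, were close to even. Six4 had 983 and 1117 by its brightest probe set (0.18), and its 3 probe sets past the filter gave 0.12 to 0.48. Six5 had 1086 and 1112 (0.033), which turned to -0.039 after quantile normalization and -0.13 with equal medians. Six3, a forebrain and eye factor, had 154 and 145 (-0.078). Six2, of nephron progenitors, was at 1.51 and 1, and Six6, of the retina, at 15.0 and 24.9.

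Dlx3 and Dlx4, distal-less genes with roles in placenta and ectoderm, were the members of their family past the filter. By their brightest probe sets Dlx3 had 277 and 256 (-0.10) and Dlx4 had 1687 and 1778 (0.076). The direction of that Dlx4 probe set turned with equal medians (-0.086). The other probe set of each was far dimmer, at 2.44 and 1.13 for Dlx3 and at 4.05 and 16.8 (0.71) for Dlx4. The level of these genes therefore rests on 1 probe set each. The other 4 coding Dlx genes, Dlx1, Dlx2, Dlx5 and Dlx6, which pattern forebrain and pharyngeal arches, had no signal above 77.3.

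Among the head and brain families Pitx3, of lens and midbrain dopamine neurons, had 147 and 166 (0.16), and this turned to -0.0028 after quantile normalization. Vax1, of the optic stalk, had 190 and 132 (-0.48). Emx2os, the transcript opposite Emx2, had 142.9 and 123.1 (-0.19) and was the only noncoding member past the filter, while Emx2 itself had 69.4 and 122.8, with the dox value just under the median. Otx1, an anterior neural factor, went from 23.4 to the table's floor of 1 and was the single member that differed by over 2-fold (-1.21) without passing the filter. Otx2, Gbx1, Gbx2, Emx1, Vax2, Pitx1, Barx1 and Barx2 were below it, with no signal above 82.6. Of the somite and vessel factors, Meox1 had 30.4 and 57.3 and Meox2 had 37.1 and 19.6, both below the filter. The other 9 noncoding members, Dlx1as, Dlx4os, Dlx6os1, Dlx6os2, Lhx1os, Otx2os1, Pax6os1, Six3os1 and Vax2os, were below it too.

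The 47 members below the filter had a median signal of 30.4 without dox and 27.7 with dox, and log2 differences from -1.21 to 0.70. The table used here has no detection calls, so a dim value does not show that a gene is silent. Of the 118 probe sets 3 were at the floor of 1 without dox and 10 with dox, beside 1165 and 1102 of all 45037.

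**Figure D3:**
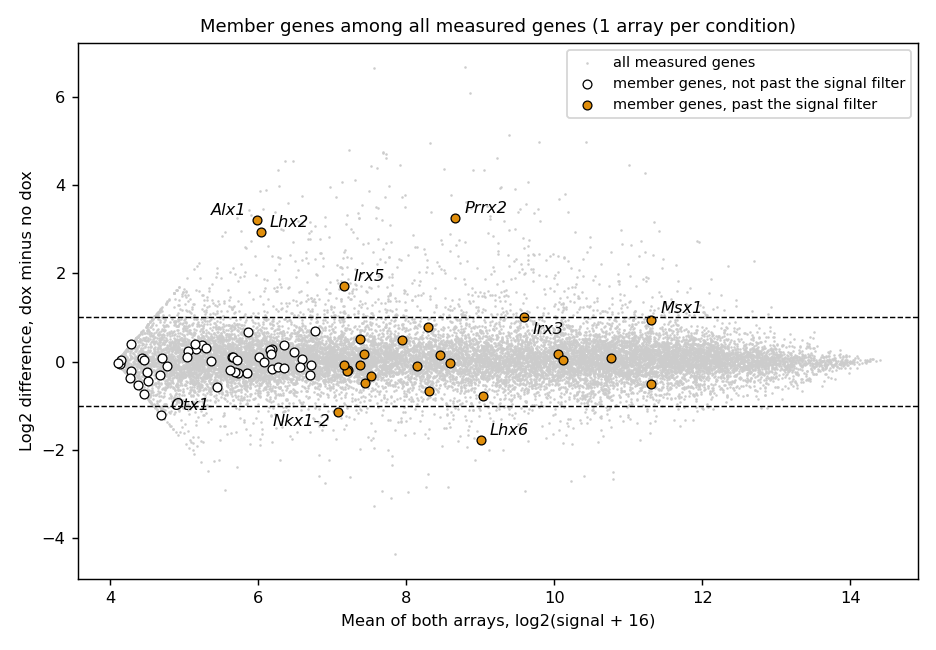
Log2 difference, dox minus no dox, against the mean of both arrays on the log2(signal + 16) scale, with all 18193 measured genes in grey and the 74 member genes as circles, filled where they passed the signal filter; dashed lines mark 2-fold. Prrx2, Alx1, Lhx2 and Irx5 lie above the upper line and Lhx6 and Nkx1-2 below the lower one, Irx3 and Msx1 lie just under the upper line, and Otx1 is the other member outside the lines.

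Partner and pathway genes were read from lists drawn up for this group. The shares to set beside their counts are 3.69% called as higher and 1.34% as lower among all measured genes. Among the 6 Eya and Dach genes, partners of the sine oculis factors, none was called, and the brightest probe sets had differences from 0.11 to 0.58. The lowest of these was -0.011 after quantile normalization and -0.049 with equal medians. Other probe sets disagreed, down to -1.51 for Dach1 and -0.56 for Eya3 and up to 1.33 for Eya4. Of 10 LIM cofactors Lmo4, a LIM-only protein that competes for the Ldb cofactors, was called (337 and 754, log2 difference 1.13), although its value was 0.97 with equal medians. Ldb1, the cofactor that LIM homeodomain proteins need, had 825 and 898 (0.12). Of 7 measured corepressors Tle3, a Groucho protein, was called (1147 and 3043, 1.40), with probe sets that ranged from -0.32 to 1.58.

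BMP ligands and target genes, which act upstream of Msx and Dlx genes in many tissues, included 7 of 13 called as higher and none as lower. All 13 passed the filter, and of all genes past it 5.69% were called as higher. Their median log2 difference was 1.16, beside 0.041 for all genes. Bmp4, a ligand that induces Msx genes, had 720.5 and 3398 (2.21) and Hand2, a heart and limb factor, had 958 and 7568 (2.96). Smad6, an inhibitor induced by BMP signalling, had 2036 and 6524 (1.67). Bmp5 (1.39), Smad7 (1.16), Id2 (1.23) and Id4 (1.85) were the others called, and with equal medians 6 were called, without Smad7 (0.998). Other probe sets fell short of 2-fold, down to -0.20 for Bmp5, 0.10 for Id2, 0.35 for Hand2 and 0.77 for Smad7. Those of Id4 ran from 1.26 to 2.30. Id1 and Id3, also direct BMP targets, were within 2-fold with 0.28 and -0.072. Of the 8 measured genes of the left-right Nodal pathway, Shroom3 (1.06) was called as higher and Foxh1 (-1.19) as lower, and the probe sets of each went in both directions. The call of Shroom3 was lost after quantile normalization (0.997) and with equal medians (0.89).

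Of 38 further homeobox genes of like kind outside the name rule, 2 were called as higher and 2 as lower, with a median of 0.0031. Among all measured genes 3.69% were called as higher and 1.34% as lower. With counts this small the calls in this list and the next ones are not read as a property of a list. Tlx1, of the spleen primordium, had 25.4 and 332 (3.07) and Cux1, a widely expressed cut-domain factor, had 322 and 733 (1.15), with probe sets from -0.47 to 1.27 and a value of 0.99 with equal medians, which ends its call. Isl1, of the second heart field, had 1562 and 581 (-1.40), and its other probe set, also past the filter, gave -0.69. Evx1, of the streak, had 166 and 67.8 (-1.12). Hhex, a factor of early endothelium and endoderm, had 4046 and 3408 (-0.25). Among 15 measured somite genes Foxc2 (762 and 2783, 1.85) and Meis2 (1549 and 10139.4, 2.70) were called as higher and Tcf15 (1085 and 528, -1.02) as lower. Among 9 cranial and pharyngeal mesoderm genes Tcf21, of epicardium and head muscle, was called (67.1 and 523, 2.70), although another probe set gave -0.53. With equal medians Foxc1 (-0.88, then -1.04) was called as lower too. None of 14 neural genes was called, but Nes (-0.97) and Sox10 (-0.98) were just short of it and were called as lower after quantile normalization (-1.07 and -1.09) and with equal medians. None of 10 endoderm genes was called.

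**Figure D4:**
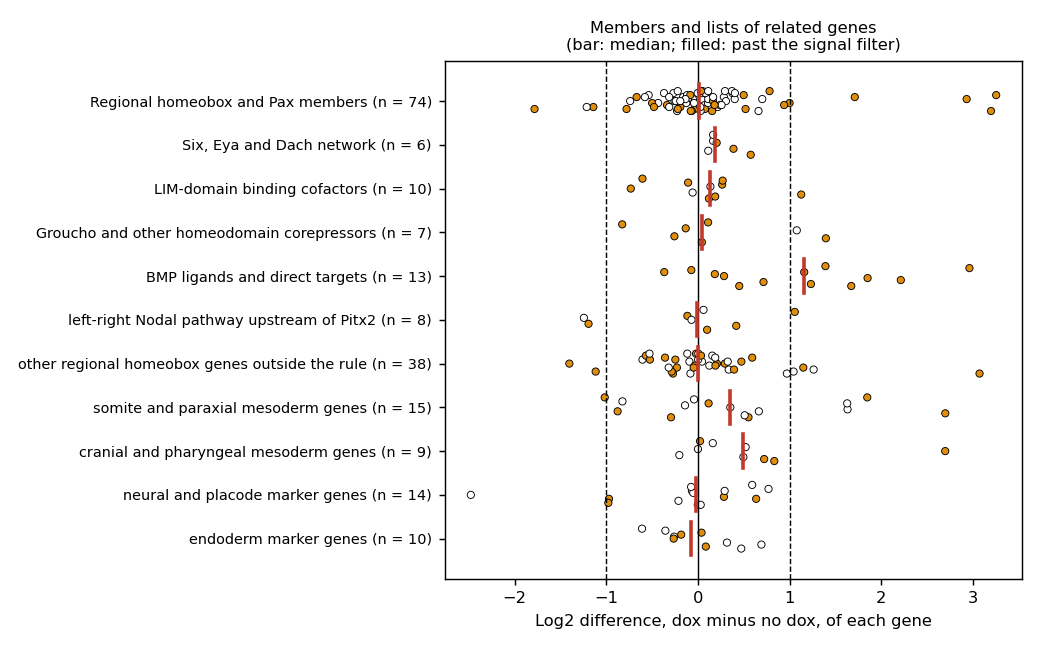
Log2 difference, dox minus no dox, of each gene in the member group and in 10 lists of related genes, with the median as a red bar, filled points past the signal filter and dashed lines at 2-fold. The median of the members lies at 0.015 and that of BMP ligands and targets at 1.16.

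Markers of other cell types differed between the same arrays, where 3.69% of all measured genes were called as higher and 1.34% as lower. Mesp1 itself had 2433 and 10977, and 9 of 10 endothelial markers were within 2-fold, with summed signals of 51490 and 51397. The exception was Eng (1626 and 3922), and by any amount 3 of the 10 were higher and 7 lower. Kdr and Tek, which encode the receptors used for the sort, are among the 10. Both samples were selected for them, so their even signals are not a separate result. Of 12 smooth muscle and mesenchyme markers 9 were called as higher, all 12 were higher by any amount, and their summed signal was 5423 without dox and 41079 with dox. Acta2 (2999 and 14719) and Col3a1 (530 and 10557) gave the largest parts of the sum with dox. Cnn1 was at the floor of 1 without dox and at 147 with dox, and Myh11 stayed at 1.67 and 13.5. Prrx2, Alx1 and the Msx genes are themselves mesenchymal factors, and the part of mesenchymal cells in their values was not tested. Of 10 cardiomyocyte markers 5 were called as higher and none as lower (summed signal 888 and 4435), and their part in the values of Irx3 and Irx5 was not tested. The atrial hormone gene Nppa was at 8.22 and 8.16. Of 9 blood markers 3 were called as lower and 8 were lower by any amount (summed 10500 and 6262). Itga2b (5586 and 4865, within 2-fold) and Hbb-bh1 (3282 and 535) gave most of both blood sums. Neural markers were dim apart from Elavl3 (314.3 and 314.0). Olig2 was at 1.90 without dox and 1 with dox. Sox1 was at 78.6 and 1 by its brightest probe set, below the filter, and its probe sets ran from -2.48 to 1.49. Of 6 endoderm markers none was called (summed 9853 and 10438). Of these sums Sox17, also an endothelial gene, gave 9431 and 10010, and the other 5 together 422 and 428. Of 6 markers of undifferentiated stem cells only Klf4 was called (2687 and 6306), and Nanog was below the filter at 8.61 and 26.9. Pou5f1 (52.8 and 46.3), Zfp42 (62.0 and 68.0), Dppa3 (84.45 and 80.6) and Esrrb (272 and 246) differed little.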

How the data were processed

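RNA of sorted Flk1+Tie2+ cells was measured on 1 Affymetrix 3' array per condition. The authors deposited linear intensities, with a value for each probe set on each array; their summarisation and scaling are not given in the sources used here, and very dim values sit at a floor of 1. Probe sets were named through the platform annotation, and the Entrez number of all 74 member genes was found in the RefSeq table of GRCm38.p6. Of 45037 probe sets 34945 had 1 symbol, 932 had several and 9160 had none.

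Differences of log2(signal + 16) were computed with Python 3.11.15, pandas 2.3.3 and numpy 2.4.6. The calling procedure was run on simulated arrays with large changes planted in bright genes and little added noise. That run checks that the procedure works as written. It does not measure how reliable the calls are here, least of all for dim genes. The members, the gene lists and the named genes (every member past the signal filter, every called gene of a related list) were chosen with earlier results of these data known. Alternatives changed the pseudocount, filter, scaling, probe set rule and fold threshold. With 1 array per condition no test was made, and the number of arrays limits the precision.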

Additional observations from a re-analysis of the deposited data

How the results depend on the processing

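None of the 6 called member genes changed direction under any of the alternatives that gave it a value, but few of these could have changed it. A pseudocount or a filter cannot turn a direction. Prrx2, Irx5 and Lhx2 have 1 probe set each, so the mean over probe sets leaves them as they are. The unchanged directions are therefore not read as a check of the calls. Prrx2 ranged from 2.86 to 3.41, Alx1 from 1.80 to 4.89, Lhx2 from 1.68 to 4.24, Irx5 from 1.27 to 1.93, Lhx6 from -1.94 to -1.12 and Nkx1-2 from -1.30 to -0.29. Of the 4 member genes called as higher, 1 (Prrx2) was left with a filter on both arrays or at the 75th percentile, and 2 (Prrx2 and Irx5) with a filter on the mean. Among all genes 2.29%, 1.92% and 3.31% were called as higher with these filters, in that order. Of the 2 called as lower, 1 was left with those first 2 filters (Lhx6), with a pseudocount of 64 (Lhx6), with the mean over probe sets (Lhx6) and without probe sets ending in _s_at, _x_at or _a_at (Nkx1-2). That last setting leaves Prrx2 and the brightest probe set of Lhx6 out by construction. Among all genes 0.742% to 1.29% were called as lower in the settings that left 1 member called as lower. A pseudocount of 1 gave 5 higher at 2-fold, with Irx3 (1.02) added, beside 3.94% of all genes. At a threshold of 1.5-fold, an alternative chosen after seeing the data, 7 were higher, beside 7.66% of all genes, with Irx3, Msx1 and Msx2 added. By the same threshold 4 were lower, beside 4.58% of all genes, with Irx1 and Pax6 added. Of these, Pax6 was 0.11 by the mean over probe sets, and Msx1 was 0.32 without the probe set endings named above. Over all genes the counts were 671 higher and 243 lower. They were 417 higher with the filter on both arrays, 350 and 135 at the 75th percentile, 1393 and 833 at 1.5-fold, 372 lower without a filter and 386 lower with equal medians. Equal medians shifted every difference by -0.16, and the share of higher among called genes went from 73.4% to 58.2%, or 64.7% after quantile normalization. The members' median was then -0.15 and -0.063, beside -0.12 and -0.036 for all genes. The median of BMP genes was 0.76 with the mean over probe sets and 0.74 without those probe set endings, and that of neural genes was -0.97 with the filter at the 75th percentile, where few are left. Among the other alternatives no list median moved by more than the probe set SD. That SD describes single probe sets and is a wide measure for a median. Small list medians could change sign within it, as for LIM cofactors (0.13, then -0.033 with equal medians). No paired analysis was possible because each condition has 1 array.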
